A study of Mus musculus with 7 samples.

Results

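The genes described here were 7 subunits of the GABA-A receptor (Gabra2, Gabra3, Gabra4, Gabra5, Gabrb1, Gabrb2 and Gabrg1), picked by gene name from the 24062 gene symbols counted. Their transcripts were read in ZsGreen-positive neurons of Esr1-ZsGreen mice, a reporter line in which green fluorescence marks cells that express estrogen receptor alpha (ERα). The neurons lay in the medial preoptic area (MPA), a hypothalamic region that controls body temperature, in slices from young adult mice described in the methods as female. Every slice was warmed by 5 °C during whole-cell recording, and the contents of 2 neurons with like responses were drawn into the pipette and pooled as 1 sample. Pools came from neurons whose firing rate rose beyond a cutoff on warming (temperature-responsive, n = 4) or did not (non-responsive, n = 3). A smaller rise counted as non-responsive. The groups thus differ in a recorded property and not in genotype or treatment. The labels do not say which pools shared an animal, and p-values measure the spread between these pools alone.

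GABA-A receptors are chloride channels opened by the inhibitory transmitter GABA, and each is a ring of subunits, usually of the alpha and beta classes with a gamma or delta subunit. GABA binds between alpha and beta subunits, and benzodiazepines between alpha and gamma subunits. The preoptic area is rich in GABAergic neurons, and its receptors are also targets of neurosteroids made from progesterone.

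Gabrb2 and Gabrg1 were higher and Gabrb1 and Gabra3 lower in temperature-responsive neurons, while Gabra2, Gabra4 and Gabra5 did not pass the test. The 4 members that passed compare with 30.0% of all 14407 genes tested at the same threshold (edgeR's quasi-likelihood test, Benjamini-Hochberg adjusted p under 0.05). The 2 higher members stand beside 15.1% of all genes and the 2 lower members beside 14.9%. Normalized levels stood apart between the groups in 3 of the 7 members, against 35.4% of all genes. All 7 members passed the filter on low counts, with at least 145 counts in every sample.

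Some properties of the libraries moved with the groups. Totals were 1914497 to 2814360 counts in temperature-responsive and 3309361 to 5125280 in non-responsive samples, and genes with at least 1 count numbered 19852 to 21177 and 17818 to 19820, so neither measure overlapped. With genes detected as a covariate, none of the members passed the threshold, and 1 gene of all those tested did. The part of these differences in the results was not tested further. Summed levels of 5 endothelial genes were 94.1 to 317 CPM (counts of a gene per 1e6 counts of its sample, after TMM scaling) in temperature-responsive and 17.9 to 64.9 CPM in non-responsive samples, with 2 of the 5 genes called higher and none at 0. Sums of 5 astrocyte genes (1090.4 to 1270.1 against 882 to 1075 CPM) also did not overlap, though the genes went both ways, with 2 called higher and 1, Gfap, called lower (log2 fold change -1.01, edgeR adjusted p = 0.000364). Genes of oligodendrocytes and microglia were present in every sample. So were 5 genes of cortex and hippocampus, with none called. They summed to 156 to 282 CPM in temperature-responsive and 199 to 216 CPM in non-responsive samples. The part of these cells in the results was not tested. Esr1, the gene for ERα, had 10 to 27 counts per sample. With Esr1 among them, 5 medial preoptic genes summed to 52.4 to 92.9 CPM in temperature-responsive and 67.9 to 101 CPM in non-responsive samples, below the cortex and hippocampus genes. The Y-linked gene Ddx3y had 684 to 1150 counts and Xist 2 to 14 in every sample, although the methods describe female mice. In such pools, fewer cells of a type and less RNA per cell cannot be told apart.

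4 of the members (Gabrg1, Gabra2, Gabra4 and Gabrb1) are neighbours on chromosome 5 within 1397991 bases of the mouse genome build mm10. Gabrg1 lies at chr5:70751047-70842617 and Gabra2 at chr5:70957597-71095849, both on the minus strand. Gabra4, also on the minus strand, lies at chr5:71569749-71658308 and Gabrb1, on the plus strand, at chr5:71658113-72149037, so the pair start head to head and their annotated spans share 196 bases. The counts do not show to which of the pair reads in that shared stretch went. The exonic bases that the pair share make up 0.756% of those of Gabra4 and 0.332% of those of Gabrb1. Gabra5 lies at chr7:57407672-57510059 (minus strand), Gabrb2 at chr11:42419757-42629028 (plus strand) and Gabra3 at chrX:72432681-72656848 (minus strand). Counts for each gene cover the exons of all of its transcripts.

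The start regions of the pair of members that were higher are shown because they differ in base composition. Each run is the sequence before the RefSeq start site (GRCm38.p6), 5′ to 3′ on the gene's strand, free of annotated exons, and capitals mark matches on either strand to a TATA box (TATAAA) or a GC box (GGGCGG).
Gabrb2, chr11:42420190-42420439: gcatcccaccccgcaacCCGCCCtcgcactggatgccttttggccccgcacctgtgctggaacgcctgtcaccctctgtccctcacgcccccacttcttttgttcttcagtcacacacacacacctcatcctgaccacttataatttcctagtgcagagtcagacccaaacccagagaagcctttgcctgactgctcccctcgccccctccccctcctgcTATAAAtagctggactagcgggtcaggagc
Gabrg1, chr5:70842618-70842867: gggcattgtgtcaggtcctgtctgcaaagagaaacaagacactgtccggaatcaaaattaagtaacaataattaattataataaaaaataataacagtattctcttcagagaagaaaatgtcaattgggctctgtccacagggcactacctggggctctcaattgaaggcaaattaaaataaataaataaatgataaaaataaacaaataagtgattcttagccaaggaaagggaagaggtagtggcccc
The Gabrb2 run was 58.8% GC with 8 CpG pairs, and the Gabrg1 run 35.6% with 1. The Gabrb2 run lies inside the annotated span given above for that gene, which starts before the RefSeq site. Over the promoter window of 300 bases, TATAAA was found in 2 of the 7 members and in 13.6% of all 32851 windows, and GGGCGG in 3 members and 35.7% of windows. The estrogen response element core AGGTCA was in none of the 7 member windows and in 16.3% of all windows. These motifs and both runs were picked after the fold changes were known, and a match is a description of letters only.

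Among the beta subunits, which carry part of the GABA site and set sensitivity to some anaesthetics, the members moved in opposite directions. Gabrb2 encodes the beta subunit of the most common receptor type of the brain. Its level was 935, 741, 665 and 629 CPM in the temperature-responsive samples and 560.3, 507 and 445 CPM in the non-responsive samples. All 4 responsive samples lay above all 3 non-responsive samples, and Gabrb2 had the highest level of the 7 members in every sample. The means were 743 ± 137 CPM (SD, n = 4) and 504 ± 57.8 CPM (SD, n = 3), a log2 fold change of 0.56 with a standard error of 0.122 (edgeR adjusted p = 0.00185).

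Gabrb1 encodes a beta subunit with a more restricted distribution. It stood at 93.6, 96.5, 109.7 and 98.0 CPM in the temperature-responsive samples and at 121, 149 and 170.2 CPM in the non-responsive samples. The groups did not overlap, and the responsive samples lay closer together. Means of 99.5 ± 7.07 CPM (SD, n = 4) and 147 ± 24.8 CPM (SD, n = 3) gave a log2 fold change of -0.56 with a standard error of 0.113 (edgeR adjusted p = 0.000915).

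The ratio of the Gabrb2 level to the Gabrb1 level, which does not depend on the scaling of a sample, was picked after these values were seen and is given without a test. It was 9.99, 7.68, 6.06 and 6.42 in the temperature-responsive samples and 4.64, 3.41 and 2.61 in the non-responsive samples. Gabrb1 made up 9.10 to 14.2% of the summed level of both genes in responsive and 17.7 to 27.7% in non-responsive samples.

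Gabrg1 encodes the gamma subunit known from the preoptic area and amygdala, which gives receptors a weak response to classical benzodiazepines. Its level was 196, 225, 175 and 173 CPM in the temperature-responsive samples and 137, 135 and 128 CPM in the non-responsive samples. Every responsive sample was above every non-responsive one, and the non-responsive samples spanned a narrow range. The means were 192 ± 24.0 CPM (SD, n = 4) and 133 ± 4.89 CPM (SD, n = 3), with a log2 fold change of 0.52 and a standard error of 0.103 (edgeR adjusted p = 0.000778). Under an offset for transcript GC content the log2 fold change was 0.17 (edgeR adjusted p = 0.177). The summed level of 5 astrocyte genes was also higher in the responsive samples, with 2 called higher and 1 lower. The part of astrocytes in the Gabrg1 level was not tested.

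**Figure D1:**
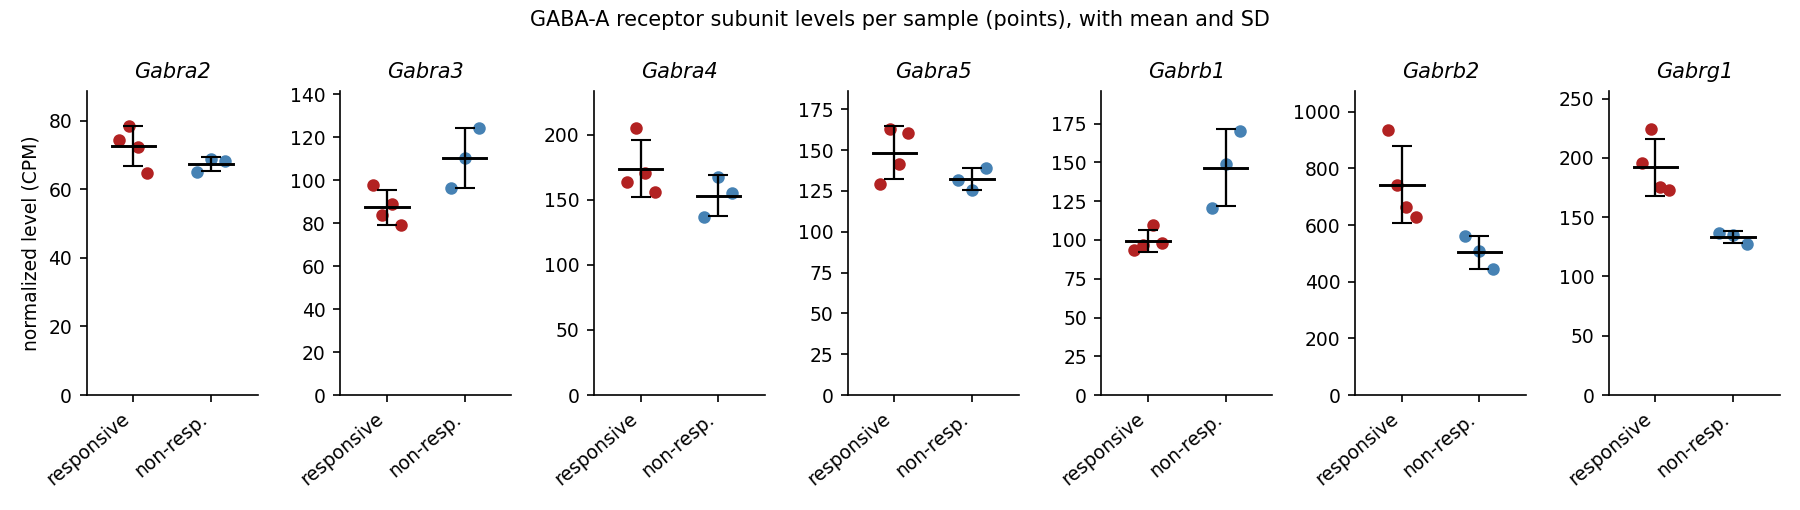
Normalized level (CPM, linear axis from 0) of each of the 7 subunit genes in the temperature-responsive (red, n = 4) and non-responsive (blue, n = 3) samples, with 1 point per sample, a bar at the mean and whiskers of 1 SD. The red and blue points separate for Gabrb1, Gabrb2 and Gabrg1 and overlap for the 4 alpha subunit genes.

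The alpha subunits decide much of where a receptor sits and how it answers drugs. Gabra3, the alpha subunit of many monoaminergic and reticular thalamic neurons, was the alpha member that passed the test. It was at 97.8, 83.5, 88.9 and 78.9 CPM in the temperature-responsive samples and at 96.3, 110.3 and 124 CPM in the non-responsive samples. Responsive replicate 1 lay above non-responsive replicate 1, so the groups overlapped. The log2 fold change was -0.34 with a standard error of 0.114 (edgeR adjusted p = 0.0243). This call was lost without temperature-responsive replicate 2 (adjusted p = 0.0692 by edgeR) or 4 (0.0880), without non-responsive replicate 2 (0.0700) or 3 (0.157), and the log2 fold change was 0.0027 with genes detected as a covariate.

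Gabra2, an alpha subunit of synapses on the cell body and axon initial segment, was at 74.4, 78.6, 72.4 and 64.8 CPM in the temperature-responsive and 65.2, 68.8 and 68.3 CPM in the non-responsive samples. The ranges overlapped, with a log2 fold change of 0.10 and a standard error of 0.119 (edgeR adjusted p = 0.563). The sign turned to -0.17 under the GC offset.

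Gabra4, often found outside synapses together with the delta subunit, had levels of 164, 206, 171 and 156 CPM in temperature-responsive and 137, 168 and 155 CPM in non-responsive samples. Gabra5, an alpha subunit known for tonic inhibition in the hippocampus, had levels of 129, 163, 142 and 161 CPM in temperature-responsive and 132, 126 and 139 CPM in non-responsive samples. Both genes overlapped between groups. The log2 fold change was 0.17 with a standard error of 0.106 for Gabra4 (edgeR adjusted p = 0.224) and 0.17 with a standard error of 0.102 for Gabra5 (edgeR adjusted p = 0.222). The levels of the 4 alpha members together came to 460.1 to 530.4 CPM in responsive and 430 to 487 CPM in non-responsive samples.

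**Figure D2:**
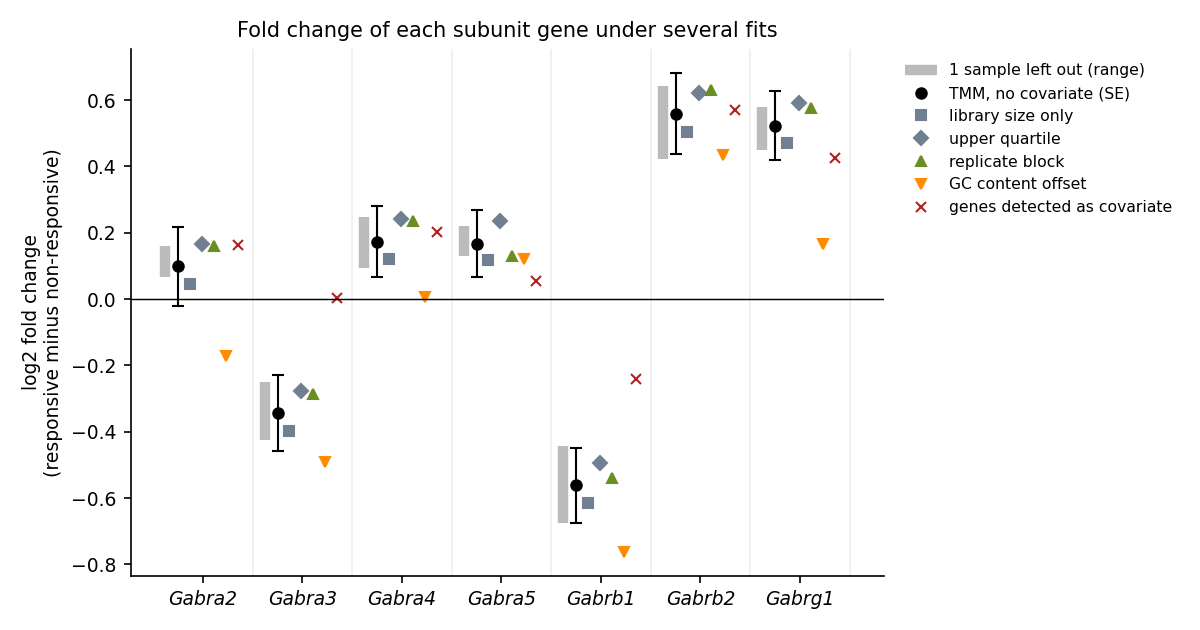
Log2 fold change (temperature-responsive minus non-responsive) of each subunit gene with TMM normalization and no covariate (black, whiskers of 1 SE), under other normalizations, a replicate block, a GC offset and genes detected as a covariate, and as the range over fits that left out 1 sample each (gray bar). Gabrb2, Gabrg1 and Gabrb1 keep their sign in all of the fits drawn, as do Gabra4 and Gabra5, which did not pass the test. Gabrg1 falls from 0.52 to 0.17 under the GC offset, and Gabra3 lies at 0.0027 with the covariate.

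Transcript GC content is given beside these values because fold changes followed it across all genes (Spearman's rho = -0.342 over 14293 genes, which are not independent replicates). The members are poorer in GC than the median tested gene (49.8%). Gabrg1 transcripts had 35.3% GC, and 0.301% of tested genes had less. Gabra2 had 38.4%, Gabrb1 40.9%, Gabra4 42.2%, Gabra3 43.1%, Gabrb2 44.0% and Gabra5 47.1%. The median log2 fold change of all tested genes between 34 and 36% GC was 0.46, close to the value of Gabrg1, and it was 0.26 between 40 and 42% GC, where Gabrb1 stood at -0.56. With the GC offset Gabrb1 was at -0.76 (edgeR adjusted p = 0.000211), Gabra3 at -0.49 (edgeR adjusted p = 0.00287) and Gabrb2 at 0.43 (edgeR adjusted p = 0.00534).

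**Figure D3:**
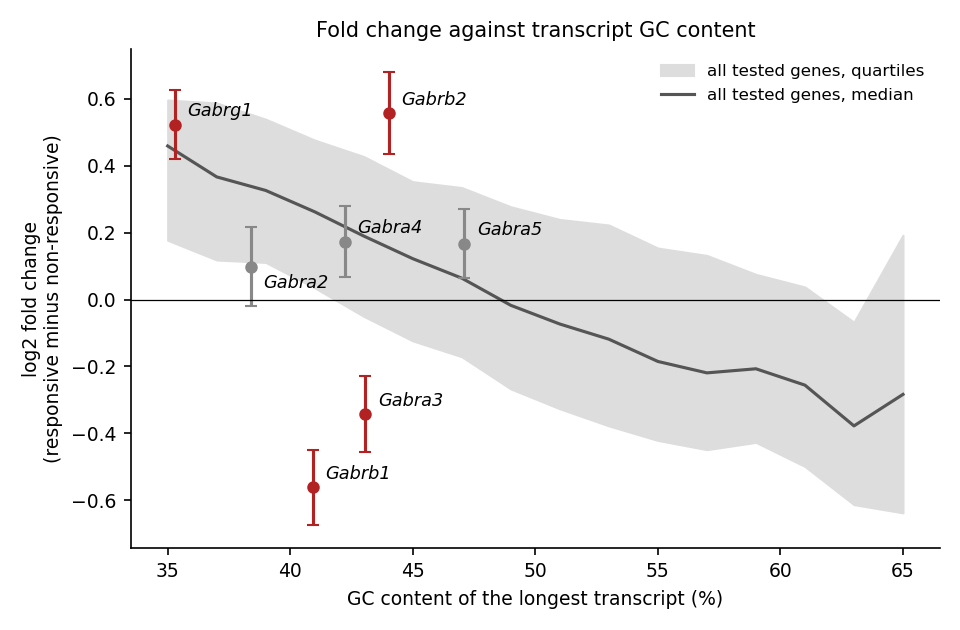
Log2 fold change (temperature-responsive minus non-responsive) against the GC content of the longest transcript (%), for the subunit genes (points with 1 SE, red where the adjusted p is under 0.05) and for all tested genes in steps of GC content (line, median, and gray band, quartiles). Gabrg1 lies near the median of genes of its GC content, Gabrb2 above the band, Gabrb1 and Gabra3 below it, and Gabra2 just below its lower edge.

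The share of each gene in the summed CPM of the 7 members removes the scaling of a sample. Gabrb2 made up 55.4, 46.5, 46.7 and 46.3% in the temperature-responsive samples and 44.9, 40.1 and 36.2% in the non-responsive samples. Gabrb1 made up 5.54, 6.06, 7.71 and 7.21% in the temperature-responsive against 9.67, 11.8 and 13.8% in the non-responsive samples. Gabrg1 held 12.7 ± 1.06% (SD, n = 4) against 10.7 ± 0.298% (SD, n = 3), Gabra3 5.77 ± 0.409% against 8.85 ± 1.20%, and Gabra2 4.80 ± 0.294% against 5.41 ± 0.171%. For these 5 genes the groups did not overlap, and the exact permutation test over the 35 assignments of samples (two-sided, doubling the smaller tail, unadjusted) gave p = 0.0571 for each. That is the smallest p this form of the test allows with 4 samples against 3, so it could not reach the threshold. Counting assignments by the size of the difference instead, a form added after the first p-values had been seen, gave an exact p = 0.0286 for Gabra3, Gabrb1 and Gabrb2 and left Gabra2 and Gabrg1 at 0.0571. Shares of Gabra4 (11.5 ± 1.35% against 12.3 ± 1.20%, exact p = 0.514) and Gabra5 (9.90 ± 1.72% against 10.6 ± 0.687%, exact p = 0.629) overlapped. With all 19 subunit genes of the files in the denominator, the differences fell to 2.92 percentage points for Gabrb2 and 0.68 for Gabrg1 (exact p = 0.114 for each), and these groups were no longer apart. Per kilobase of exon, the difference for Gabrb1 was -2.17 in place of -5.14 percentage points. The 7 shares sum to 100 in a sample, so a gain of one is a loss of others.

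**Figure D4:**
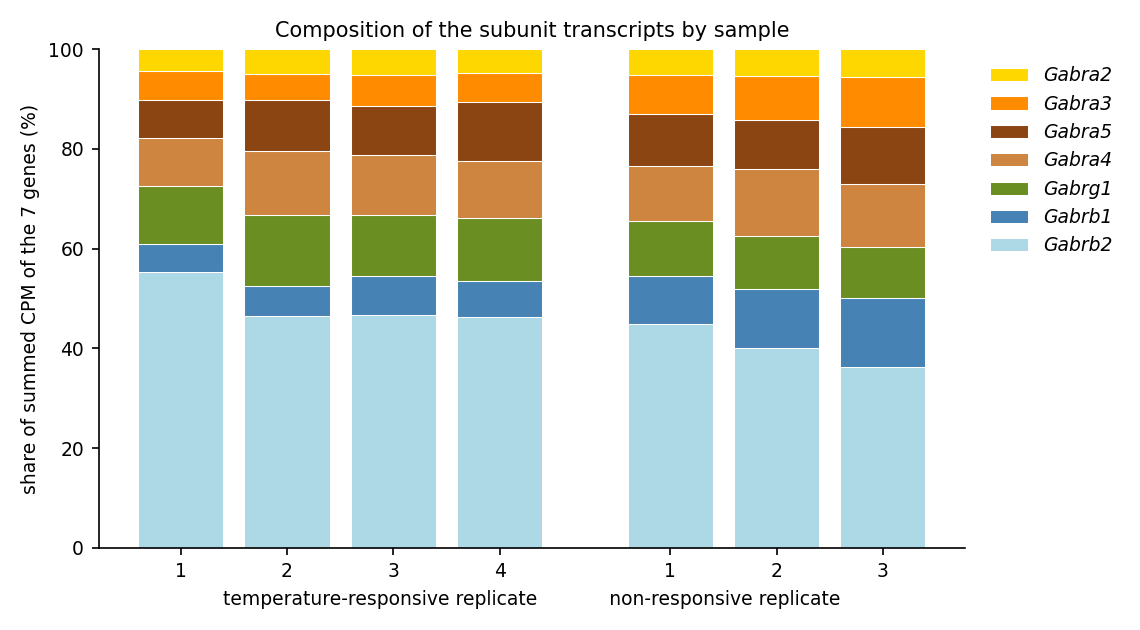
Share (%) of each subunit gene in the summed CPM of the 7 genes, with 1 stacked bar for each of the 4 temperature-responsive and 3 non-responsive samples. The Gabrb2 segment runs from 46.3 to 55.4% in the responsive and from 36.2 to 44.9% in the non-responsive bars, and the Gabrb1 segment is thinner in every responsive bar.

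The summed level of the 7 genes was 1359.7 to 1689 CPM in temperature-responsive and 1229 to 1264 CPM in non-responsive samples, without overlap. The 5 genes whose centred log2 levels followed this sum most closely over the 7 samples were Laptm4a, Srsf11, Hsd17b12, Map7d2 and 4930506M07Rik, with mean absolute differences of 0.027 to 0.032 on the log2 scale. Between members, the closest pair by the same measure was Gabra4 and Gabra2 (0.080 on the log2 scale), with Gabra2 ranked 41 of 14406 genes by likeness to Gabra4.

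Levels can be compared between genes only per length. Per kilobase of exon, the order by mean level over all 7 samples was Gabrb2, Gabra5, Gabra4, Gabra3, Gabrg1, Gabra2 and Gabrb1. Gabrb2 ranged from 69.9 to 147 CPM per kilobase over the 7 samples and lay wholly above Gabra5 (42.2 to 54.7), which lay wholly above Gabra4 (22.5 to 33.8). Gabra4, Gabra3 (20.1 to 31.6) and Gabrg1 (16.2 to 28.5) overlapped, as did Gabra2 (8.48 to 10.3) and Gabrb1 (6.76 to 12.3). The order was not that of each group, since Gabrb1 was above Gabra2, and Gabra3 above Gabra4, in all 3 non-responsive samples and below it in all 4 responsive ones. Per kilobase of the longest transcript, Gabrg1 and Gabra3 changed places, and neither of these switches between the groups held. Gabra4 was then above Gabra3 in every sample (33.3, 40.9 and 37.8 against 26.3, 30.1 and 33.9 in the non-responsive samples). Gabra2 was above Gabrb1 in 6 of the 7 samples, with non-responsive replicate 3 the exception. Gabra5 stayed above Gabra4 in each sample, but their ranges over the 7 samples overlapped. The kit primes on the poly(A) tail, and coverage along these transcripts is not known from counts.

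Genes that make, move and clear GABA were higher or did not pass the test. Of 8 such genes, 5 rose in temperature-responsive neurons, where 15.1% of all genes rose, and none fell (median log2 fold change 0.35, against 0.0071 over all tested genes). The count rests on single libraries, being 0 of 8 without non-responsive replicate 3 and 2 of 8 without temperature-responsive replicate 2 or non-responsive replicate 2. Among them were Gad1, which makes GABA (log2 fold change 0.48, edgeR adjusted p = 0.00766), the GABA-degrading enzyme Abat (0.36), the chloride importer Slc12a2 (0.34) and the chloride exporter Slc12a5 (0.35). Gad2, which also makes GABA (0.31, edgeR adjusted p = 0.0836), and the vesicular GABA transporter Slc32a1 (0.0029, edgeR adjusted p = 0.992) did not pass. The chloride transporters set whether an open GABA-A channel lowers or raises membrane potential, and both moved in the same direction. Levels of Slc12a2 overlapped between groups, and this gene had an adjusted p of 0.170 under the GC offset in edgeR.

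Of 21 tested genes listed for assembly, anchoring and traffic of the receptor, 7 fell, 1 rose and 13 did not pass the test (median log2 fold change -0.27). Of all genes, 14.9% fell. Those that fell included Slitrk3, a synaptic adhesion protein (log2 fold change -0.80, edgeR adjusted p = 0.00455), Iqsec3 (-0.50) and Clptm1, which holds subunits back from the surface (-0.47). Jakmip1 (-0.60), known as a binding partner of GABA-B receptors, is on the list and counted among the 7. Gabarap, a binding partner of gamma subunits that also acts in autophagy, rose by 0.56 (edgeR adjusted p = 0.000776). Gphn, which encodes the synaptic scaffold gephyrin, was at 127 ± 9.84 CPM (SD, n = 4) against 138 ± 13.7 CPM (SD, n = 3), with an adjusted p of 0.389 by edgeR. Under the GC offset 6 of the 21 fell and 1 rose, and the median log2 fold change shrank to -0.15.

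Among other receptors for inhibitory transmitters, 2 of 4 tested glycine receptor genes rose and none fell. Of all tested genes, 15.1% rose and 14.9% fell. The lists in this paragraph are short, so their counts say little beside those shares. The beta subunit Glrb, which binds gephyrin, had a log2 fold change of 0.63 (edgeR adjusted p = 0.000675), and the alpha subunit Glra2 one of 0.73 (edgeR adjusted p = 0.000959). Of the GABA-B receptor genes, Gabbr2 fell (log2 fold change -0.87, edgeR adjusted p = 0.00902) on 19 to 181 counts per sample with overlapping groups, a call lost without non-responsive replicate 3. Gabbr1 was at 371 ± 14.4 CPM (SD, n = 4) against 323 ± 24.7 CPM (SD, n = 3), with an adjusted p of 0.115 by edgeR. Of 4 tested genes for endogenous modulators, Dbi, the diazepam-binding inhibitor, rose (log2 fold change 0.85, edgeR adjusted p = 0.00115). Dbi is also a gene of glial cells, whose markers were present in every pool, and their part in its level was not tested. With genes detected as a covariate, none of the genes on these lists passed the threshold.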

How the data were processed

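Patch-seq libraries (SMART-seq V4, Nextera XT) of 4 temperature-responsive and 3 non-responsive samples were compared. The authors aligned reads to mm10 with STAR 2.6.0, removed duplicates with RmDup and deposited raw counts per gene symbol from HTSeq 0.9.1, without normalization. The annotation and strand setting are not given in the sources used here. Duplicate removal without molecular identifiers can lower counts of abundant genes.

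The deposited counts were compared in R 4.3.3 by the quasi-likelihood test of edgeR 4.0.16 (robust, TMM, two-sided), for the 14407 genes that reached 10 counts in 3 or more samples, and p-values were adjusted over all of them (Benjamini-Hochberg, threshold 0.05). CPM are counts scaled to a common total after TMM, and 3 counts equal 0.568 to 1.63 CPM. Totals were 1914497 to 5125280 counts, and intervals of counting error were not computed. The fit was tested on simulated data. Shares were compared by exact permutation (scipy 1.17.1). The written design named neither way of counting the two-sided p. Doubling of the smaller tail was run first and is the main result. The count by size was added later.

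Alternatives were 12 other fits, with DESeq2 1.42.0, limma 3.58.1 or mgcv 1.9.3 offsets for GC content, and 7 fits without 1 sample each. Shares were also recomputed with other denominators, lengths and downsampling. Transcript properties came from GENCODE M21. Replicate numbers come from the labels and were not used to pair samples in the main fit.

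The members and lists were chosen with earlier results of these data known. Named genes were all members and, per list, every gene past the threshold or the 6 with the smallest adjusted p. The list genes Gad2, Slc32a1, Gphn and Gabbr1 were named outside this rule. The rule also named other subunit genes in the counts. These 12, which entered only the alternative denominator of shares, and 2 of the list genes it named are not reported here.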

Additional observations from a re-analysis of the deposited data

Results flagged for a closer look

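The share of Gabrb2 in the 7 subunit genes was set apart by temperature-responsive replicate 1, at 55.4% against 46.3 to 46.7% in the other 3 responsive samples. The gap made up 0.948 of the group's range. It was the only 1 of 16 measures tested in the 4 responsive samples to be set apart in this way, and chance gives about 1 in 20. Without this sample the difference in the share of Gabrb2 between groups was 6.10 percentage points, against 8.31 with it, and the log2 fold change of Gabrb2 was 0.42 (edgeR adjusted p = 0.00472). The same sample had the highest Gabrb2 level (935 CPM).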

How the results depend on the processing

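With genes detected as a covariate, 1 gene passed the threshold (2061 at an unadjusted p under 0.05) and 0 members, and the log2 fold changes were -0.24 for Gabrb1, 0.57 for Gabrb2, 0.43 for Gabrg1 and 0.0027 for Gabra3, whose sign turned. Genes detected did not overlap between groups, so the covariate and the group cannot be told apart. The replicate block used replicates 1 to 3 of each group, so it left out temperature-responsive replicate 4. It left Gabra3 at -0.29 (adjusted p = 0.0797 by edgeR) and changed no other member's call. Leaving out that sample with no block also gave -0.29 for Gabra3 (adjusted p = 0.0880 by edgeR). With the GC offset added to the block, 2719 genes passed, Gabrg1 was at 0.17 and Gabra2 at -0.15. Same-numbered samples had a mean correlation of deviations of -0.053 (-0.128 to 0.032), and different-numbered samples one of 0.017 (-0.170 to 0.222). No pairing by number was seen, but 3 same-numbered pairs are too few to exclude it. The GC offset alone gave -0.17 for Gabra2 and 0.17 for Gabrg1. Upper quartile normalization left Gabra3 at -0.28 (adjusted p = 0.0564 by edgeR), and its share of higher calls was 62.1%, against 50.3% under TMM and 42.1% with library size only. Leaving out 1 sample gave 2620 to 4583 genes, fewest without non-responsive replicate 3, and -0.43 to -0.25 for Gabra3, and share differences of -1.34 to 0.049 percentage points for Gabra5, whose sign turned without temperature-responsive replicate 1, and -1.45 to -0.17 for Gabra4. The differences in shares of Gabra3 (-3.08 percentage points), Gabrb1 (-5.14) and Gabrb2 (8.31) passed the threshold under the count by size of difference, added after seeing the data, and not under the doubled tail. That change comes from the way p is counted, since the data are the same. Where no value shows another cause, the cause was not tested. Apart from these values, the fits kept the direction and call of each member's fold change. The 7 lower calls among trafficking genes became 12 with no filter on low counts and 11 under the block. Depth limits Esr1 and Gabbr2 more than the members.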
